A study of Mus musculus with 12 samples.

Results

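The 10 genes described here encode the building blocks of the basement membrane: the laminin chains Lama1, Lama3, Lama5, Lamb1 and Lamc1, the type IV collagen chains Col4a1 and Col4a2, the linker Nid1, the heparan sulfate proteoglycan Hspg2 and the collagen-binding protein Sparc. They were chosen by name from the 18193 genes that the array annotation names, with earlier results of these data known. The 10 genes had 23 probe sets, and for each gene the probe set with the highest mean over all arrays was used. A gene was tested if 2 or more arrays reached a log2 level of 5, which held for 9929 genes and for all 10 members. Lama1 passed it only through its level in released day 4.5 embryos, so its higher level there is partly built into its being tested, and the same holds below for each gene said to reach 5 in 1 group only.

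Basement membranes are thin sheets of extracellular matrix. A laminin is a heterotrimer of 1 alpha, 1 beta and 1 gamma chain and polymerises at the cell surface, where integrins and dystroglycan hold it. Collagen IV forms the second network, and nidogen and perlecan, the product of Hspg2, connect it to the laminin. In the mouse blastocyst, laminin and collagen IV are laid down beneath the trophectoderm and by the primitive endoderm, and the parietal endoderm that follows makes the thick Reichert's membrane. That membrane is rich in laminin with the alpha-1 chain, in collagen IV and in Sparc.

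Embryos of ICR mice were collected in 6 groups of 2 arrays each. Untreated control embryos had 2 cells at day 1.5 and 4 to 8 cells at day 2.5, and were morulae to blastocysts at day 3.5. Treated embryos were taken at day 2.5 from 20 µM U0126, which blocks MEK, the kinase that activates ERK, and were arrested with 4 cells. Released embryos had left that arrest and were taken at day 3.5, when the series text gives them 8 cells, and at day 4.5, when it gives them as morula to blastocyst. Treated and control day 2.5 embryos therefore differ in cell number as well as in treatment, and released and control embryos of like stage differ in age. The mix of stages within a group and the number of embryos per array are not given in the sources used here. An equal amount of total RNA, 0.1 µg, was labelled for each array, so a level is relative to the RNA of the whole embryo. In such samples, fewer cells of a type and less RNA per cell cannot be told apart.

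Over the genes tested, the correlation between the arrays of 1 group lay between 0.955 (U0126) and 0.980 (released day 4.5), and the median standard error of a difference between groups was 0.35 on the log2 scale. The number of arrays limits the precision. Nothing in the labels ties the replicates to separate cultures or animals, although the series text mentions 2 experiments. The p-values thus describe only how far these samples spread, which may be technical. Of 11 cumulus and granulosa cell markers and 6 sperm markers on the array, 0 reached a level of 5 on any array. Among 10 stromal markers 1 did, Postn, on 1 array of control day 1.5, and among 8 endothelial markers 1 did, Tek, on both control day 1.5 arrays. Of 8 blood and immune cell markers 1 reached it, Cd68, with its highest level of 7.29 under U0126, and the 8 summed to an intensity of 151 to 215 there and 79.7 to 84.0 in control day 2.5. Of 8 oviduct epithelium markers 2 reached it, Esr1, highest in control day 1.5 at 5.72, and Ovgp1, highest under U0126 at 6.35. These 8 summed to 94.6 to 149 in control day 1.5, 79.5 to 141 under U0126 and 77.9 to 103 in control day 2.5, and to 68.4 to 87.1 over the other 3 groups. Their part in the results was not tested.

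All levels below are log2(intensity + 1), replicate 1 before replicate 2, and are compared between groups only, never between genes. Lama1, the laminin alpha-1 chain, had levels of 3.83 and 3.39 in control day 1.5, 3.14 and 3.12 in control day 2.5, 4.91 and 3.09 in control day 3.5, 3.30 and 3.39 under U0126, 3.24 and 3.39 in released day 3.5, and 6.72 and 7.47 in released day 4.5 embryos. Both released day 4.5 arrays lay above the other 10, which were all under 5. Lama3, the alpha-3 chain found in laminins of epithelia, had levels of 2.57 and 2.60 in control day 1.5, 3.19 and 2.62 in control day 2.5, 7.52 and 7.05 in control day 3.5, 2.62 and 2.68 under U0126, 6.48 and 6.26 in released day 3.5, and 6.15 and 5.75 in released day 4.5 embryos. It was high on the 6 arrays of the 3 latest groups and under 5 on the other 6, with no overlap between them. Lama5, the alpha-5 chain, had levels of 3.23 and 4.24, then 3.83 and 4.07, then 6.65 and 5.91 in controls of day 1.5, 2.5 and 3.5, 5.80 and 5.15 under U0126, 6.68 and 6.18 in released day 3.5, and 7.29 and 6.17 in released day 4.5 embryos. It was the only laminin alpha chain among these 3 with both U0126 arrays above 5, and those arrays lay above both same-day controls.

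The beta-1 and gamma-1 chains assemble with either the alpha-1 or the alpha-5 chain. Lamb1 had levels of 7.14 and 8.43, 8.49 and 9.04, and 9.48 and 10.06 in controls of day 1.5, 2.5 and 3.5, 8.40 and 7.97 under U0126, 9.34 and 10.28 in released day 3.5, and 10.10 and 10.84 in released day 4.5 embryos. It was above 5 on all 12 arrays, the 2-cell embryos included, and its group means spanned 2.69. Lamc1 had levels of 2.50 and 3.36, 4.66 and 3.78, and 5.58 and 5.39 in the same controls, 3.13 and 2.34 under U0126, 5.91 and 5.03 in released day 3.5, and 6.02 and 5.85 in released day 4.5 embryos. Like Lama3, it was above 5 only on the arrays of control day 3.5 and both released groups.

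The collagen IV chains form trimers of 2 alpha-1 chains and 1 alpha-2 chain. Col4a1 had levels of 6.09 and 5.77, 6.63 and 6.98, and 8.72 and 8.72 in controls of day 1.5, 2.5 and 3.5, 5.02 and 5.53 under U0126, 8.75 and 8.71 in released day 3.5, and 9.05 and 9.18 in released day 4.5 embryos. Its lowest 2 values were those of the U0126 arrays, and the released and control day 3.5 arrays overlapped. Col4a2 had levels of 3.99 and 3.91, 4.26 and 4.00, and 6.95 and 5.70 in the controls, 3.25 and 4.01 under U0126, 7.14 and 6.95 in released day 3.5, and 7.04 and 6.78 in released day 4.5 embryos. The 6 arrays of the 3 latest groups again lay above the other 6.

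The collagen IV genes lie side by side, and part of the region where both start is shown. The RefSeq (GRCm38.p6) starts used here lie 21 bases apart on opposite strands of chromosome 8, and the annotated genes overlap at their 5′ ends. As a whole gene, Col4a1 is annotated further, up to 11312889, and the Col4a2 gene begins at 11312805. The stretch below, chr8:11312754-11312783 on the plus strand, lies before the Col4a2 start, within the annotated Col4a1 gene, and holds a GC box (GGGCGG, here as its complement) and a CCAAT box, both in capitals.
Col4a1 and Col4a2 shared start region: gcgCCGCCCgaggagctccCCAATttgttg
Of 32851 RefSeq windows of 250 bases before a start, 32.7% held a GC box and 33.8% a CCAAT box on either strand. Over the 6 group means, the levels of Col4a1 and Col4a2 correlated with r = 0.97, a description of 6 points.

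Nid1, nidogen 1, had levels of 4.27 and 3.48 in control day 1.5, 10.28 and 9.93 in control day 2.5, 9.59 and 9.82 in control day 3.5, 8.00 and 7.71 under U0126, 9.88 and 9.77 in released day 3.5, and 9.66 and 9.46 in released day 4.5 embryos. It was under 5 in 2-cell embryos and high on the other 10 arrays, with the U0126 arrays in between. Sparc had levels of 3.25 and 3.54, 4.17 and 3.79, and 6.56 and 5.37 in controls of day 1.5, 2.5 and 3.5, 3.78 and 4.43 under U0126, 6.81 and 6.46 in released day 3.5, and 8.72 and 8.52 in released day 4.5 embryos. Its released day 4.5 arrays lay above all others by more than the spread of any group. Hspg2 had levels between 5.28 and 5.92 on all 12 arrays, and its group means spanned 0.32, so every group overlapped with others. These levels lay close to the filter level of 5, and the other Hspg2 probe set lay between 2.82 and 3.03 on all 12 arrays.

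The 250 bases before the RefSeq start (GRCm38.p6) are shown for Nid1, which was high from day 2.5 on, and for Sparc, which was highest at day 4.5. The Nid1 stretch is chr13:13437352-13437601 on the plus strand, and the Sparc stretch is chr11:55420081-55420330 on the minus strand. Capitals mark the GC box and the CCAAT box of Nid1, the latter as its complement.
Nid1: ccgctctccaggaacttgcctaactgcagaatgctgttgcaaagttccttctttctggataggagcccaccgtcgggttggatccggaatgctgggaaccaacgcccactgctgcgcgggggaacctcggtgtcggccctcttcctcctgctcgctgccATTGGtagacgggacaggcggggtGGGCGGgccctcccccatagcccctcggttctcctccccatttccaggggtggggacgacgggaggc
Sparc: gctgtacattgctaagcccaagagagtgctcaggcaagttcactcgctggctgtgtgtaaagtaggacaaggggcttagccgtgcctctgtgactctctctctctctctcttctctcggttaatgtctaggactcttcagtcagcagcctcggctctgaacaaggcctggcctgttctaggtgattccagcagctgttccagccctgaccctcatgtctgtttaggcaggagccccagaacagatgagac
The Sparc stretch holds 0 of the 5 motifs searched on both strands. The other 3 were the AP-1 motif TGANTCA, found in 6.75% of the 32851 windows, the GATA motif AGATAA, found in 9.99%, and the TATA box TATAAA, found in 12.4%. They were found in 0 of the 7 members with a window, which are Col4a1, Col4a2, Hspg2, Lama5, Lamb1, Nid1 and Sparc. Lama5 had 4 GC boxes, Hspg2 5, Lamb1 2 and Col4a2 2, and Col4a1 had 0. A match is a description of letters, and no match says only that these letters are not in this window.

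**Figure D1:**
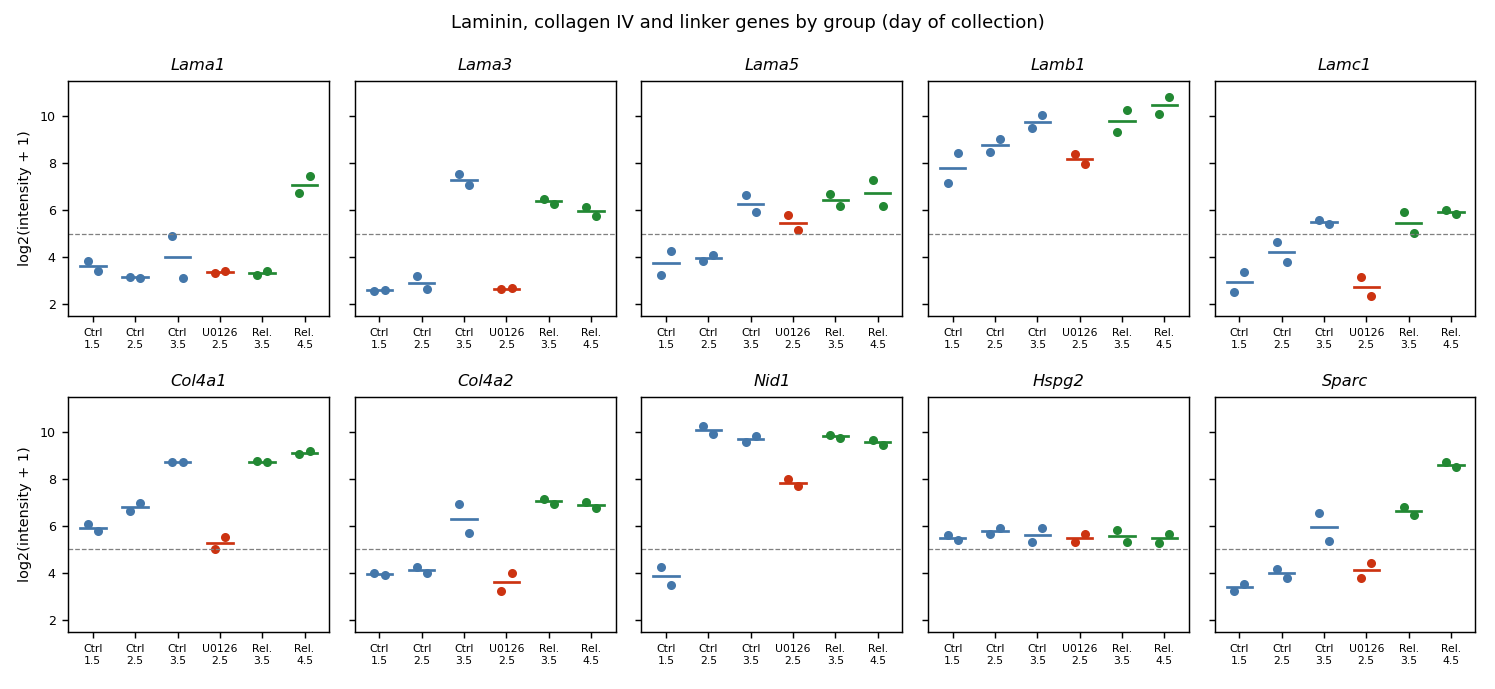
Log2(intensity + 1) of the 10 genes (vertical axis) in the 6 groups (horizontal axis: control, U0126-treated and released embryos by day). Points are the 2 arrays of a group, bars are their means and the dashed line is the filter level of 5; levels are to be compared within a panel. Nid1 is high from control day 2.5 on, Lama3, Lamc1, Col4a2 and Sparc are above the line on the 6 arrays of the 3 latest groups, and Lama1 only in released day 4.5 embryos.

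From the 2-cell to the 4- to 8-cell stage, Nid1 rose 75.1-fold, from 2-cell arrays that were under the filter level. The difference was 6.23 ± 0.30 (log2, SE; adjusted p = 2.08e-07), rank 10 among all rises of the genes tested. Measured from the level of 5, it was at least 5.11. Col4a1 rose by 0.88 ± 0.27 (adjusted p = 0.0171) and Lamc1 by 1.29 ± 0.44 (adjusted p = 0.0274), the latter with both groups under 5. So 3 of 10 members were higher, where 28.0% of all genes tested were higher and 27.4% lower, and the count of members is near the background. The other 7 did not pass, although Lamb1 did without control day 1.5 replicate 2 (adjusted p = 0.0264). The median difference was 0.45 over the members and 0.09 over all genes tested. Leaving out replicate 2 of control day 1.5 (adjusted p = 0.0874) or of control day 2.5 (0.118) ended the Col4a1 call, as did the mean of all probe sets (0.128) and a fit of only the groups compared (0.0557). Leaving out replicate 1 of control day 1.5 (0.189) or of control day 2.5 (0.202) ended the Lamc1 call, as did a pseudocount of 16 (0.0988), no filter (0.0672) and the mean of all probe sets (0.122).

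From the 4- to 8-cell stage to the morula and blastocyst, both collagen IV chains, 2 laminin alpha chains and Sparc rose in the controls. Lama3 rose 20.8-fold, by 4.38 ± 0.29 (adjusted p = 5.94e-05), rank 12 among all rises and at least 2.28 from the level of 5. Lama5 rose by 2.33 ± 0.47 (adjusted p = 0.00651), at least 1.28 from that level. Col4a1 rose by 1.91 ± 0.27 (adjusted p = 0.00129) and Col4a2 by 2.19 ± 0.40 (adjusted p = 0.00409), the latter at least 1.32. Sparc, which binds collagen on its way out of the cell, rose by 1.98 ± 0.39 (adjusted p = 0.00626), at least 0.96. These 5 of 10 compare with 13.3% of all genes tested that were higher and 8.28% that were lower. The median difference was 1.59 over the members and 0.09 over all genes tested. Lamc1 differed by 1.26 ± 0.44 (adjusted p = 0.0622), Lamb1 by 1.01 ± 0.48 (0.164) and Lama1 by 0.87 ± 0.49 (0.237), none past the threshold. Lama1 passed without control day 3.5 replicate 2 (0.0147). Nid1 differed by -0.40 (95% interval -1.08 to 0.27) and Hspg2 by -0.18 (-0.87 to 0.51). Without control day 3.5 replicate 1, which had the higher Lama5 and Sparc levels, those calls were lost (adjusted p = 0.0737 and 0.0632) and 3 members remained called. The same omission took the genes changed over all 9929 tested from 2146 to 676, and leaving out replicate 1 or 2 of control day 2.5 took them to 1131 or 1048.

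Under U0126, Nid1, Col4a1 and Lamc1 were lower than in control embryos of the same day. Nid1 fell 4.77-fold, by 2.25 ± 0.30 on the log2 scale (adjusted p = 0.00206; rank 70 among all falls). It was nevertheless above its 2-cell level by 3.98 ± 0.30 (adjusted p = 4.76e-06), at least 2.85 from the level of 5. Col4a1 fell 2.90-fold, by 1.53 ± 0.27 (adjusted p = 0.00584), to a level that differed from the 2-cell embryos by -0.66 ± 0.27 (adjusted p = 0.0627, and 0.0309 without U0126 replicate 2). Lamc1 fell by 1.48 ± 0.44 (adjusted p = 0.0471), with both groups under the level of 5. These 3 of 10 stand against 4.71% of all genes tested that were lower and 9.22% that were higher, and the median difference was -0.40 over the members and 0.11 over all genes tested. In a fit of all probe sets, another Nid1 probe set differed by -2.01 (adjusted p = 0.00691). Other probe sets of Col4a1 and Lamc1 differed by -0.28 (0.699) and -0.42 (0.711), neither past the threshold.

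Lama5 went the other way under U0126, at 1.52 ± 0.47 above same-day controls, which did not pass (unadjusted p = 0.00795, adjusted p = 0.0541). It lay just over the threshold, and passed without either control day 1.5 array (adjusted p = 0.0489) or either released day 4.5 array (0.0474). In a fit of all probe sets, another Lama5 probe set differed from same-day controls by 1.17 (adjusted p = 0.162). Its levels under U0126 were 5.12 and 3.96. Against 2-cell embryos the Lama5 probe set used was higher by 1.74 ± 0.47 (adjusted p = 0.0101), at least 0.47. That call was lost without replicate 1 of control day 1.5 (0.0870) or of U0126 (0.0717), which in each case left 1 member called in place of 2. Lama5 and Nid1 were the 2 of 10 members higher under U0126 than in 2-cell embryos, where 28.1% of all genes tested were. The other differences from same-day controls were -0.58 ± 0.48 for Lamb1, -0.50 ± 0.40 for Col4a2, -0.25 ± 0.29 for Lama3, 0.12 ± 0.39 for Sparc, 0.22 ± 0.49 for Lama1 and -0.30 ± 0.31 for Hspg2, with adjusted p from 0.464 to 0.889.

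In a fit of only the U0126 and control day 2.5 arrays, 0 of 10 members passed limma's test and 4 had an unadjusted p under 0.05, with adjusted p of 0.0635 for Nid1, 0.0881 for Col4a1 and 0.145 for Lamc1. In that fit 0 of all 9929 genes passed either, against 1383 with all 12 arrays, so the loss is not particular to the members. Over all genes, 409 or 575 passed without replicate 1 or 2 of control day 2.5, and 808 without U0126 replicate 1. The Nid1 and Col4a1 calls were kept when any 1 array was left out. The Lamc1 call was lost when control day 2.5 replicate 1 (adjusted p = 0.281) or 2 (0.0574) was left out, and likewise U0126 replicate 1 (0.0515) or 2 (0.196), either control day 3.5 array (0.0676) and either released day 4.5 array (0.0683). It was also lost with a pseudocount of 16 (0.153), no filter (0.107) and the mean of all probe sets (0.204).

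**Figure D2:**
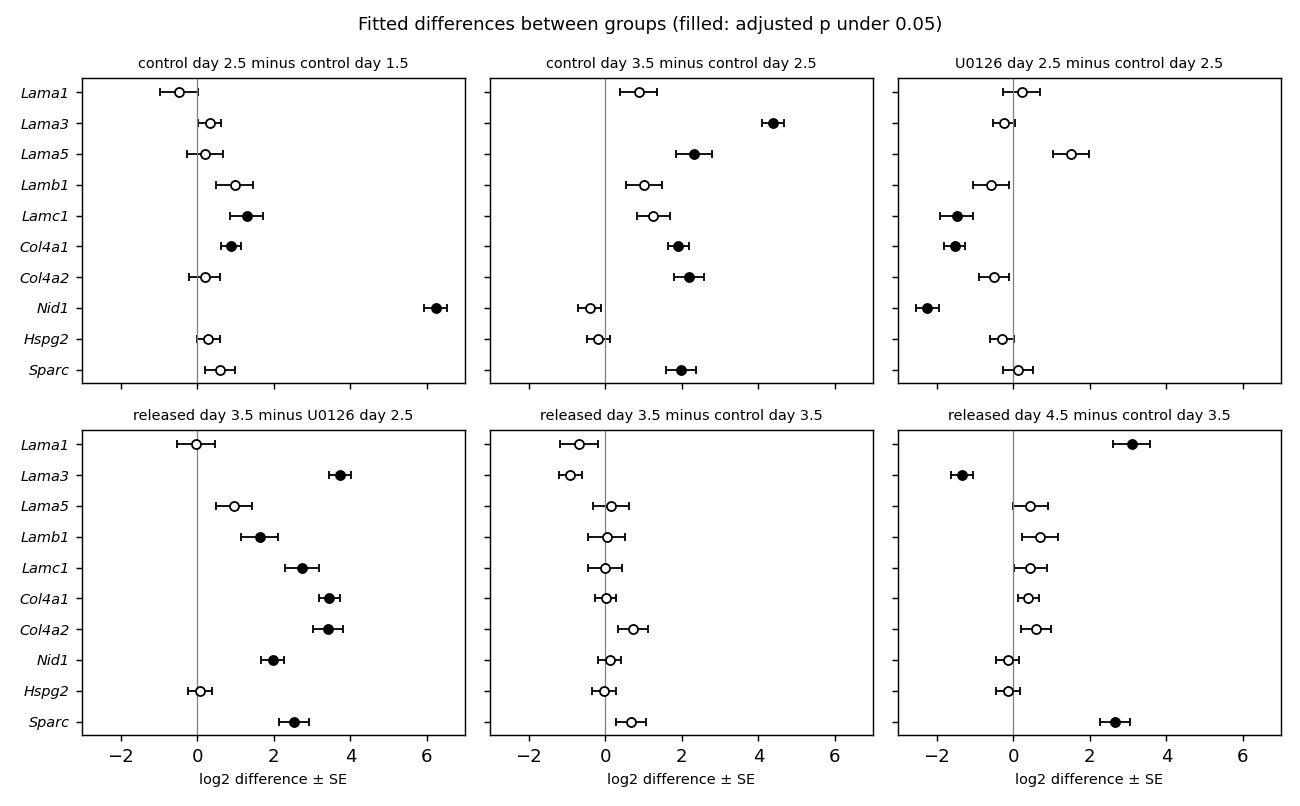
Fitted log2 differences (horizontal axis) with their standard errors for the 10 genes (vertical axis) in 6 comparisons. Filled points passed an adjusted p of 0.05: 3, 5 and 3 genes in the upper panels and 7, 0 and 3 in the lower ones, with the differences under U0126 to the left of 0 for its 3 called genes.

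In the first day after release, 7 of 10 members rose, among them both collagen IV chains and 3 laminin chains. Col4a1 rose 11-fold, by 3.45 ± 0.27 (adjusted p = 3.14e-05), and Col4a2 10.7-fold, by 3.42 ± 0.40 (adjusted p = 0.000293), the latter at least 2.05 from the level of 5. Lama3 rose 13.2-fold, by 3.72 ± 0.29 (adjusted p = 3.14e-05), at least 1.37. Lamc1 rose by 2.73 ± 0.44 (adjusted p = 0.00148), at least 0.47, and Lamb1 by 1.63 ± 0.48 (adjusted p = 0.0299). Sparc rose by 2.53 ± 0.39 (adjusted p = 0.00129), at least 1.64, and Nid1 by 1.97 ± 0.30 (adjusted p = 0.00129). Of all genes tested, 13.7% were higher, and the median difference was 2.25 over the members and -0.02 over all genes. Lama5 was already above 5 under U0126 in the probe set used and differed by 0.96 ± 0.47 (adjusted p = 0.151). Lama1 differed by -0.03 ± 0.49 and Hspg2 by 0.07 ± 0.31. The Lamb1 call was lost without U0126 replicate 1 (0.0529), U0126 replicate 2 (0.124) or released day 3.5 replicate 2 (0.193), with no filter (0.0819) and in the fit of only the groups compared (0.0620).

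Released day 3.5 embryos are given as having 8 cells, within the range of control day 2.5 embryos. Lama3, Lama5, both collagen IV chains and Sparc were nevertheless higher in them. Against control day 2.5, 5 of 10 members were higher, where 8.60% of all genes tested were. Lama3 was higher by 3.47 ± 0.29 (adjusted p = 0.000490), Col4a2 by 2.92 ± 0.40 (0.00232), Sparc by 2.65 ± 0.39 (0.00346), Lama5 by 2.48 ± 0.47 (0.00915) and Col4a1 by 1.92 ± 0.27 (0.00260). The Lama5 call was lost without control day 2.5 replicate 1 (0.0517) or released day 3.5 replicate 1 (0.0553). The median difference was 1.59 over the members and 0.09 over all genes tested.

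Against control day 3.5, 0 of 10 members passed limma's test, and 1 had an unadjusted p under 0.05. That gene was Lama3, at -0.91 ± 0.29 (unadjusted p = 0.00979, adjusted p = 0.402), whose arrays did not overlap between the groups. Only 0.312% of all genes tested had changed in this comparison. The 95% intervals of the difference bound what these arrays allow. They ran from -0.59 to 0.60 for Col4a1, -0.56 to 0.79 for Nid1, -0.73 to 0.65 for Hspg2 and -0.98 to 0.95 for Lamc1. The others were Lamb1 (-1.03 to 1.11), Lama5 (-0.88 to 1.18), Col4a2 (-0.16 to 1.60), Sparc (-0.20 to 1.54) and Lama1 (-1.78 to 0.41). The comparisons with control day 2.5 and with control day 3.5 share the released arrays.

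In the second day after release, Lama1 and Sparc rose. Lama1 rose 13.7-fold, by 3.78 ± 0.49 (adjusted p = 0.00134; rank 30 among all rises), at least 2.09 from the level of 5. Sparc rose 3.97-fold, by 1.99 ± 0.39 (adjusted p = 0.00938). These 2 of 10 stand against 7.37% of all genes tested that were higher, and the median difference was 0.34 over the members and -0.04 over all genes tested. Lama1 was tested only through its level in released day 4.5 embryos, so its place in this count is partly built in. The other 8 members did not pass, with Lamb1 at 0.66 ± 0.48, Lamc1 at 0.46 ± 0.44, Col4a1 at 0.38 ± 0.27 and Lama3 at -0.42 ± 0.29. The Sparc call was lost without released day 3.5 replicate 2 (adjusted p = 0.0566), released day 4.5 replicate 1 (0.0572) or released day 4.5 replicate 2 (0.0587), each of which left 1 member called.

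Released day 4.5 embryos also had more Lama1 and Sparc than control day 3.5 embryos, the controls of like stage. Lama1 was 8.53-fold higher, by 3.09 ± 0.49 (adjusted p = 0.00707), at least 2.09, and Sparc 6.32-fold, by 2.66 ± 0.39 (adjusted p = 0.00443). Lama3 was 2.52-fold lower, by -1.33 ± 0.29 (adjusted p = 0.0252). Of all genes tested, 3.85% were higher and 2.03% lower, and the median difference was 0.45 over the members and -0.03 over all genes tested. Here too Lama1 was tested only through its level in released day 4.5 embryos. Without released day 4.5 replicate 2 the Lama1 and Lama3 calls were lost (adjusted p = 0.0694 and 0.199) and only Sparc remained called. The Lama3 call was also lost without control day 3.5 replicate 1 (0.119) or 2 (0.0940) or released day 4.5 replicate 1 (0.0748), and with the mean of all probe sets (0.0836). In the fit of only the groups compared, Lama1 (0.0635) and Lama3 (0.0695) did not pass and Sparc did.

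The final step in the released embryos, day 3.5 to 4.5, was set against the final step in the controls, day 2.5 to 3.5, by an interaction term. For Lama3 the control step was 4.38 and the released step -0.42, a difference of -4.80 ± 0.41 (adjusted p = 0.00117), and it was the 1 member that passed, where 2.33% of all genes tested did. Lama1 moved more in the released step, by 2.91 ± 0.70 (adjusted p = 0.0582), and Col4a2 and Col4a1 less, by -2.33 ± 0.56 (0.0598) and -1.53 ± 0.38 (0.0653), none past the threshold. Lama1 passed without control day 3.5 replicate 1 (0.0177), Col4a2 without control day 3.5 replicate 2 (0.0443) or either U0126 array (0.0489), and Col4a1 without either U0126 array (0.0490). For Sparc the steps differed by 0.01 ± 0.55, with a 95% interval from -1.22 to 1.24. The series text gives the released embryos 8 cells at the start of this step and the controls 4 to 8 cells. Both ended as morula to blastocyst. The released embryos began the step with Lama3 above 5 on both arrays and the controls with it under 5 on both.

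Among the 9 other laminin and collagen IV chains on the array, 1 passed the filter, Lamb2, the beta chain of the synaptic and kidney laminins. It was called in 0 of the 10 contrasts, and its unadjusted p was under 0.05 in 0. Of 23 further basement membrane and matrix proteins, 6 passed the filter, and in the second day after release 4 of the 6 rose, against 7.37% of all genes tested. Nid2, the second nidogen, had levels of 3.88 and 4.10 in released day 3.5 and 5.99 and 6.07 in released day 4.5 embryos, a rise of 2.04 ± 0.34 (adjusted p = 0.00431). It reached 5 in that group only, so it was tested only through its high level there, and its highest level elsewhere was 4.10. The same gene had levels of 3.73 and 3.84 in control day 3.5 and was higher in released day 4.5 by 2.24 ± 0.34 (adjusted p = 0.00493, and 0.0511 without control day 3.5 replicate 2). Agrn, the proteoglycan agrin, rose by 1.80 ± 0.35 (adjusted p = 0.00844, and 0.0809 without released day 4.5 replicate 2). Fn1, fibronectin, rose by 1.94 ± 0.40 (0.0111), and was lost without released day 3.5 replicate 1 (0.0523) or 2 (0.0607) or released day 4.5 replicate 2 (0.0916). Fbln1, fibulin 1, rose by 2.59 ± 0.61 (0.0197), and was lost without released day 3.5 replicate 1 (0.0529) or 2 (0.109) or released day 4.5 replicate 1 (0.134).

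Of 24 laminin and collagen receptors and their cytoplasmic partners, 16 passed the filter. From the 2-cell to the 4- to 8-cell stage 8 of the 16 were higher and 3 lower, against 28.0% and 27.4% of all genes tested. Itgb1, the beta subunit of most laminin and collagen integrins, rose with Nid1 at that step, by 2.85 ± 0.47 (adjusted p = 0.000464), from 4.34 and 5.52 to 8.06 and 7.49. Sdc4, a heparan sulfate proteoglycan of the cell surface, rose by 5.14 ± 0.39 (adjusted p = 2.27e-06), and Ilk, which links beta integrins to the cytoskeleton, by 2.46 ± 0.37 (0.000216). Itga8, an integrin alpha subunit, fell by 4.50 ± 0.51 (3.33e-05), but reached 5 in control day 1.5 only, with at most 4.59 elsewhere, and was tested only through that group. Itga6, the alpha subunit of laminin-binding integrins, fell by 1.15 ± 0.27 (0.00446). Dag1, dystroglycan, had levels of 9.04 and 9.01 in control day 2.5, 7.99 and 7.68 under U0126 and 9.84 and 10.17 in released day 3.5 embryos. It fell by 1.18 ± 0.27 under U0126 (adjusted p = 0.0174) and rose by 2.17 ± 0.27 after release (0.000397). The fall was lost without control day 2.5 replicate 1 or 2 or U0126 replicate 2. It was also lost with the mean of all probe sets (adjusted p = 0.0572) and in the fit of only the groups compared (0.0971).

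Under U0126, 2 of the 16 receptors were lower, against 4.71% of all genes tested. They were Dag1 and Itga3, another alpha subunit of laminin-binding integrins, which fell by 1.46 ± 0.39 (adjusted p = 0.0328). The Itga3 call was lost without control day 2.5 replicate 1 (0.181) or 2 (0.0736) or U0126 replicate 1 (0.0669) or 2 (0.114). After release, 3 of the 16 rose, near the 13.7% of all genes tested that did, among them Sdc4, by 3.57 ± 0.39 (0.000220).

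Collagen chains are folded and modified in the endoplasmic reticulum. Of 23 genes for collagen folding, modification and secretion on the array, 17 passed the filter. Under U0126 1 of the 17 was lower, near the 4.71% of all genes tested. That gene was P4ha1, a catalytic subunit of prolyl 4-hydroxylase, with levels of 7.34 and 6.74 in control day 2.5, 5.18 and 4.92 under U0126 and 7.10 and 6.66 in released day 3.5 embryos. It fell by 1.99 ± 0.34 (adjusted p = 0.00513) and rose by 1.83 ± 0.34 after release (0.00296). In the first day after release 5 of the 17 rose, against 13.7% of all genes tested, among them Plod2, a lysyl hydroxylase, by 2.22 ± 0.39 (0.00229) and Sec24d, a coat protein of the vesicles that carry procollagen out, by 1.56 ± 0.31 (0.00451). Plod2 levels were 2.62 and 2.76 under U0126 and 4.37 and 5.45 in released day 3.5 embryos, so its rise lay mostly under 5. In the control step to day 3.5, 3 of the 17 rose, near the 13.3% of all genes tested, with Sec24d at 2.23 ± 0.31 (0.00126). Serpinh1, the chaperone that binds procollagen in the endoplasmic reticulum, was higher in released day 4.5 than in control day 3.5 embryos. Its levels were 5.37 and 5.51 in the former and 3.72 and 3.64 in the latter. The difference was 1.76 ± 0.32 (0.0122), but only at least 0.44 from the level of 5. It was lost without control day 3.5 replicate 2 (0.116) or released day 4.5 replicate 1 (0.0660) or 2 (0.0964).

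Of the genes for crosslinking and heparan sulfate synthesis 8 of 17 on the array passed the filter, and of the matrix proteases and their inhibitors 7 of 15. Among the called genes of both lists, the largest difference was that of Mmp2, a protease that cuts collagen IV, which fell from the 2-cell to the 4- to 8-cell stage by 6.12 ± 0.45 (adjusted p = 2.04e-06). It reached 5 in 2-cell embryos only, with at most 4.76 elsewhere, so it was tested only through the group where it is high. Ext1, which extends heparan sulfate chains, fell at the same step by 1.83 ± 0.34 (0.000910). Plaur, the urokinase receptor, rose after release by 1.92 ± 0.35 (0.00265).

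The genes whose 6 group means most resembled those of a member were found over all genes tested, with r given as a description of 6 points that share the same arrays. For Nid1 the closest were Gata6, a transcription factor of the primitive endoderm, with r = 0.9974, Cxxc1 (0.9968) and Rps9 (0.9958). Gata6 had levels of 4.86 and 5.01 in control day 1.5, 11.08 and 10.56 in control day 2.5, and 9.36 and 8.36 under U0126. It rose by 5.88 ± 0.43 from the 2-cell stage (adjusted p = 1.93e-06) and was lower under U0126 by -1.96 ± 0.43 (0.0154, and 0.107 without control day 2.5 replicate 1 and 0.0745 without U0126 replicate 2). Of the 14 primitive endoderm markers tested, 6 were lower and 2 higher under U0126 than in control day 2.5 embryos, against 4.71% and 9.22% of all genes tested. Of 16 trophectoderm markers tested, 6 were lower and 0 higher, and of 13 epiblast and pluripotency markers 5 were lower and 1 higher. Lower levels under U0126 were thus not particular to the endoderm list. The closest to Lama1 were Epn3 (r = 0.9976), Tmem8b (0.9949) and Tnfrsf9 (0.9946), and to Col4a1 Neo1 (0.9954), Lman1 (0.9934) and Fth1 (0.9927). The closest was Klhl30 for Col4a2 (0.9949), Tlcd3a for Lama3 (0.9975), Ngdn for Lama5 (0.9963), Chid1 for Lamb1 (0.9987), Pwwp2b for Lamc1 (0.9971), Ppm1m for Sparc (0.9973) and Sp1 for Hspg2 (0.9721). Among the members themselves, r was 0.99 for Lamc1 with Col4a1, 0.97 for Lamb1 with Lamc1 and 0.80 for Lama1 with Sparc.

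Primitive endoderm markers moved in both directions in the embryos where Lama1 and Sparc were highest. Of 24 such markers 23 were on the array and 14 passed the filter, and in released day 4.5 against released day 3.5 embryos 3 of the 14 were higher and 1 lower, against 7.37% and 6.38% of all genes tested. Sox17, a transcription factor of that lineage, had levels of 3.38 and 3.21 in control day 3.5, 3.11 and 4.19 in released day 3.5 and 7.0 and 7.87 in released day 4.5 embryos. It was higher in released day 4.5 than in released day 3.5 by 3.78 ± 0.51 (adjusted p = 0.00154) and than in control day 3.5 by 4.14 ± 0.51 (0.00190). Sox17 reached 5 in released day 4.5 only, with at most 4.98 elsewhere, and was tested only through that group. Pdgfra, a receptor of the same lineage, had levels of 7.52 and 6.39 in control day 3.5 embryos. In released embryos they were 5.04 and 5.73 at day 3.5 and 8.3 and 9.38 at day 4.5. The rise from released day 3.5 was 3.45 ± 0.49 (0.00214). Pdgfra was not among the markers called against control day 3.5. The third was Foxq1, at 1.97 ± 0.54 (0.0358), lost when any of 9 single arrays was left out. Its levels were 3.64 and 3.42 in released day 3.5 and 4.62 and 6.39 in released day 4.5. Only replicate 2 of released day 4.5 thus reached 5 in this comparison. The 1 that fell was Cited1, a transcriptional co-regulator, from 8.99 and 7.65 in released day 3.5 to 5.34 and 4.08 in released day 4.5, by 3.61 ± 0.73 (0.0105), which was lost without released day 3.5 replicate 1 (0.0890) or released day 4.5 replicate 2 (0.100). Gata4, another factor of the lineage, had levels of 3.60 and 3.51 in released day 4.5 embryos and was highest, at 8.14 and 7.0, in 2-cell embryos. Foxa2, Sox7, Hnf4a, Ttr, Stra6, Thbd and Fst were under 5 on all 12 arrays. The intensities of the 23 markers summed to between 10800 and 13300 in control day 3.5, 9840 and 12800 in released day 3.5, and 13700 and 16100 in released day 4.5 embryos. Lrp2 and Dab2 alone made up 62.5% to 71.2%, 65.3% to 65.9% and 71.1% to 78.3% of these sums. The other 21 summed to 3830 to 4060, 3410 to 4380 and 3490 to 3970, so without those 2 genes the groups overlapped.

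The 17 trophectoderm markers on the array summed to between 23100 and 41900 in control day 3.5, 24700 and 25500 in released day 3.5, and 70100 and 73200 in released day 4.5 embryos. Krt8 and Krt18, keratins of simple epithelia, made up between 47.3% and 57.0% of these sums, and the other 15 summed to 11600 to 19200, 10600 to 11300 and 33600 to 36900. Of the 16 tested, 9 were higher in released day 4.5 than in released day 3.5 embryos, against 7.37% of all genes tested, and Hand1 was under 5 on all arrays. The part of either lineage in the levels of Lama1 and Sparc was not tested.

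**Figure D3:**
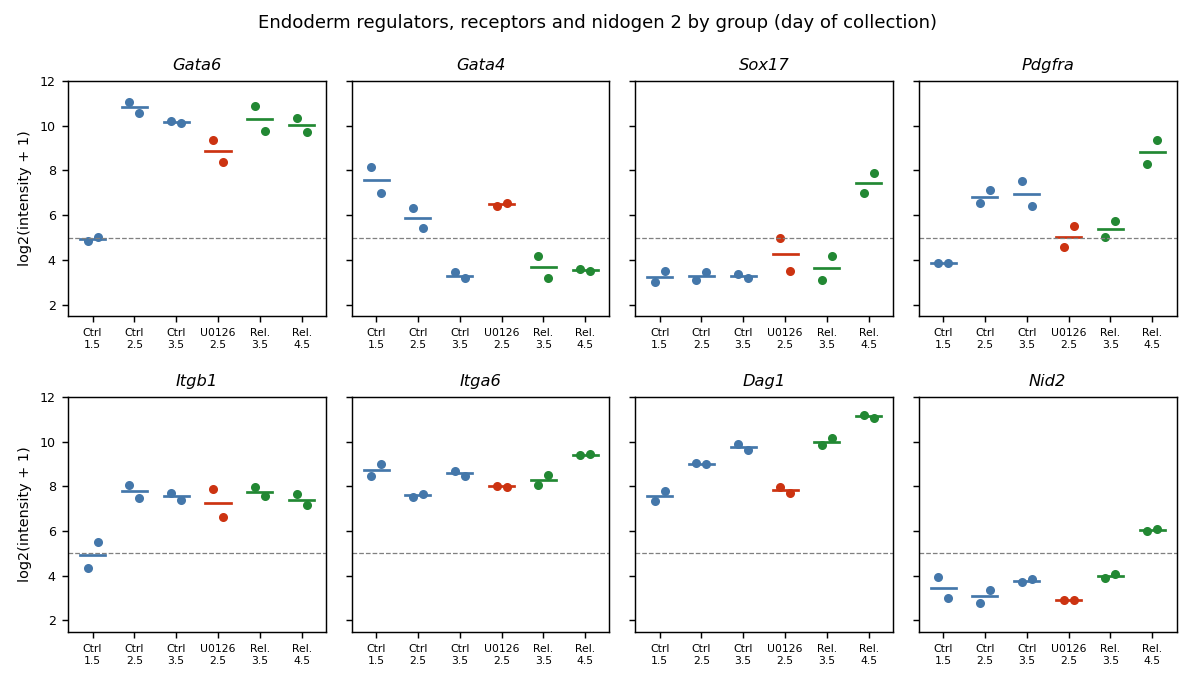
Log2(intensity + 1) (vertical axis) of endoderm regulators, laminin receptors and Nid2 in the 6 groups (horizontal axis: control, U0126-treated and released embryos by day). Points are the 2 arrays of a group, bars their means and the dashed line the filter level of 5. Gata6 is low only in control day 1.5, Dag1 is lower under U0126 than in control day 2.5, and Sox17 and Nid2 are above the line on both arrays only in released day 4.5 embryos.

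For 6 members another probe set, called the second here, also passed the filter and was fitted among all probe sets. The directions of the 9 differences between groups were the same as in the probe set used for all 9 in Nid1, Sparc and Lama5, 8 in Lamb1, 7 in Col4a1 and 6 in Lamc1. The second Nid1 probe set rose by 3.70 from the 2-cell stage (adjusted p = 1.31e-05) and fell by 2.01 under U0126 (0.00691). The second Sparc probe set was higher in released day 4.5 than in control day 3.5 embryos by 2.34 (0.0364), and differed by 1.64 in the control step to day 3.5 (0.0625). The second Col4a1 probe set differed under U0126 by -0.28 only (adjusted p = 0.699) and rose after release by 2.02 (0.00386). It was under 5 in both groups at day 2.5, unlike the probe set used. The second Lamc1 probe set differed under U0126 by -0.42 (0.711), so the lower Lamc1 level there was not seen with it. In the first day after release the second probe sets of Lamc1 and Sparc differed by 1.38 (0.104) and 1.62 (0.0518), neither past the threshold. The probe sets used for Lamb1 and Lama5 are of a type that can match several transcripts. Their second probe sets, which are not, rose by 2.09 after release for Lamb1 (0.00200) and by 2.54 in the control step to day 3.5 for Lama5 (0.00747).

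**Figure D4:**
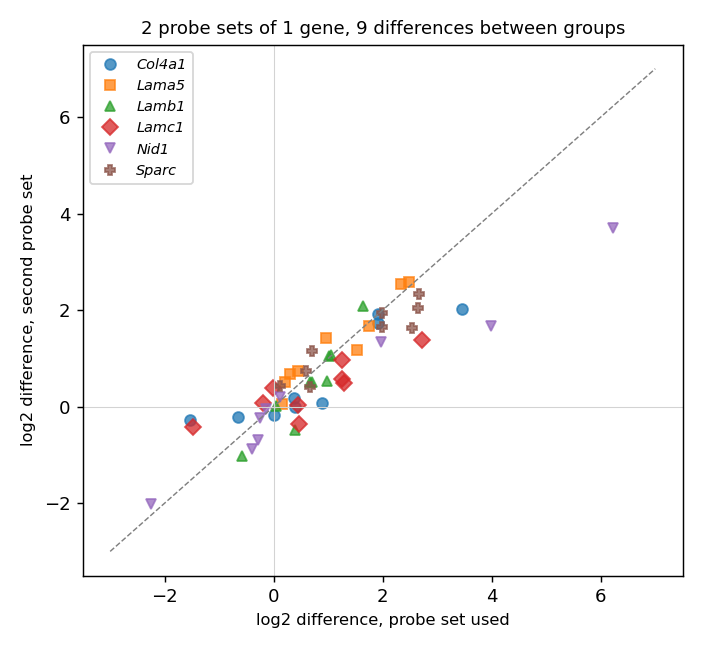
Log2 differences between groups in the probe set used (horizontal axis) against those in the second probe set of the same gene (vertical axis), with 9 differences for each of 6 genes. The dashed line marks equal values; the largest difference, the rise of Nid1 from the 2-cell stage, is 6.23 on the horizontal and 3.70 on the vertical axis.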

How the data were processed

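Labelled RNA from 12 samples of whole embryos was hybridised to 12 Affymetrix arrays of 45101 probe sets. The deposited values are linear intensities per probe set. GCRMA (background correction, quantile normalization and summary of probes) is named in the submitters' processing notes. The authors' software was GCOS 1.2 and GeneSpring 7.3, per the series text, with further steps not given in the sources used here; the unit is therefore arbitrary. Values were taken as log2(intensity + 1), and differences refer to that scale. The annotation gave 34958 probe sets 1 gene symbol, 932 several and 9211 none.

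All 12 arrays entered 1 limma 3.58.1 fit in R 4.3.3 (lmFit, contrasts.fit, eBayes; a mean per group, 6 residual and 4.51 prior degrees of freedom), which was tested on simulated data. The adjustment was Benjamini-Hochberg over the 9929 genes within a contrast, and calls had an adjusted p under 0.05. There were 9 differences between groups and 1 interaction. Gene lists were described by counts. From the partner lists, up to 4 genes per contrast could be named, by size among called genes whose arrays did not overlap between groups, besides the members, Itgb1, Itga6, Dag1, Serpinh1, Gata6 and Gata4. Primitive endoderm markers were named as cell type markers, and those given values were chosen after they were seen. The 3 genes closest to a member by r could be named. Alternatives were a pseudocount of 16, no filter, a filter level of 7, median centring, the mean of all probe sets of a gene, the replicate number as a block, a fit of only the groups compared, and leaving out each array; the fit of the second probe sets was added after the data were seen. The members and lists were chosen with earlier results of these data known.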

Additional observations from a re-analysis of the deposited data

Results flagged for a closer look

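The change of Lama3 in the final stage step differed between control and released embryos by an interaction term, with a value of -4.80 ± 0.41 on the log2 scale (adjusted p = 0.00117). The level rose in the control step, from 3.19 and 2.62 on the day 2.5 arrays to 7.52 and 7.05 on the day 3.5 arrays. In the released step it went from 6.48 and 6.26 to 6.15 and 5.75. The other Lama3 probe set lay under a level of 5 on all 12 arrays, so the pattern rests on 1 probe set.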

How the results depend on the processing

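Of 31 calls of members, 31 were kept with median centring, 31 with the replicate block, 29 with a pseudocount of 16, 28 with no filter, 27 with the mean of all probe sets, 24 in a fit of only the groups compared, 23 of 23 under a filter level of 7 and 14 of 21 in the second probe set, and 0 reversed. Counts of members called moved as follows. From control day 1.5 to 2.5, 3 became 1 with the mean of all probe sets. For U0126 against control day 2.5, 3 became 0 in the fit of only the groups compared, where all genes called went from 1383 to 0. From released day 3.5 to 4.5, 2 became 1 under the filter level of 7, which left Lama1 untested. For released day 4.5 against control day 3.5, 3 became 1 in the fit of only the groups compared. For the interaction, 1 became 3 with a pseudocount of 16, 2 with median centring, 2 with the mean of all probe sets, 4 with the replicate block and 2 in the fit of only the groups compared. The causes were not tested.

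With 1 array left out, counts ran from 2 to 3 for control day 1.5 to 2.5, 3 to 6 for control day 2.5 to 3.5, 2 to 4 for U0126 against control day 2.5, and 1 to 3 for U0126 against control day 1.5. They ran from 6 to 7 for released day 3.5 against U0126, 4 to 5 against control day 2.5, 1 to 2 for released day 4.5 against released day 3.5, 1 to 3 against control day 3.5, and 1 to 3 for the interaction. They were 0 throughout for released against control day 3.5. All genes called ran, with 1 array left out, from 1629 to 2885 for released day 3.5 against U0126, 267 to 1480 against control day 2.5 and 1 to 46 against control day 3.5, from 321 to 1560 and 84 to 680 for released day 4.5 against released and control day 3.5, and from 30 to 312 for the interaction. In these fits a lone array was assumed to vary like the other groups.

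The groups share replicate numbers, but the labels do not say what a number marks. The differences of replicate 1 and 2 correlated between groups at 0.12 to 0.42, with 2 pairs per contrast, which does not settle a pairing. With the replicate block 7 further differences of members passed (adjusted p 0.0355 to 0.0444): Lamb1 from control day 1.5 to 2.5 (0.0366), Lamc1 from control day 2.5 to 3.5 (0.0398), Lama5 under U0126 (0.0404), Col4a1 under U0126 against control day 1.5 (0.0416), and Lama1 (0.0444), Col4a1 (0.0355) and Col4a2 (0.0397) in the interaction. All genes called went with it from 1252 to 2017 for released day 3.5 against control day 2.5, 1365 to 2163 for released day 4.5 against 3.5, 584 to 1017 against control day 3.5, and 231 to 613 for the interaction. In the fit of only the groups compared they went from 2798 to 1380 for released day 3.5 against U0126, 584 to 313 for released day 4.5 against control day 3.5, and 31 to 13 for released against control day 3.5, the last also to 20 with a pseudocount of 16 and 2 with no filter. Levels under 5 bound the size of many differences, and each group had 2 arrays.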
